A study of Homo sapiens with 4 samples.

Results

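The translation initiation and elongation factor genes of human bladder cancer (BCa) cells are described here before and after treatment with OICR-9429. Genes were taken by name: every symbol that starts with EIF or EEF and a number was kept, after names with a hyphen and names that end in P and digits (pseudogene copies) had been dropped. Of 31319 genes in the deposited tables, 122 names matched, 3 were dropped for a hyphen and 56 as copies, which left 63 genes, 54 with an EIF name and 9 with an EEF name. Kinases of eIF2 (EIF2AK genes) and eIF4E-binding proteins (EIF4EBP genes) carry such names and were kept.

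T24 and UM-UC-3 are established lines of human bladder cancer cells. OICR-9429 keeps WDR5, a scaffold protein, from binding the histone methyltransferase MLL1. The study asked which genes respond when WDR5 is blocked in these cells. Total RNA was collected after 48 h, and 1 library per line and condition was analysed here: T24 in DMSO, T24 in OICR-9429, UM-UC-3 in DMSO and UM-UC-3 in OICR-9429. The DMSO cultures are labelled as negative controls, and the treated cultures as given 140 µM OICR-9429. T24 was grown in RPMI-1640 medium and UM-UC-3 in DMEM, both with fetal bovine serum, so the line and its medium cannot be told apart. In the treated tables the value heading carries the number 125, which the sources used here leave unexplained.

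Translation begins when the small ribosomal subunit, loaded with initiator tRNA by eIF2 and stabilised by eIF1, eIF1A, eIF5 and the many-subunit eIF3, is brought to the mRNA cap by the eIF4 factors and scans for a start codon. eIF5B then joins the large subunit, eEF1A delivers each aminoacyl-tRNA, eIF5A eases difficult peptide bonds and eEF2 moves the ribosome along. The pathway is throttled at 2 well known points. Stress kinases phosphorylate eIF2 and so block its recharging by eIF2B, and dephosphorylated eIF4E-binding proteins, which mTORC1 otherwise inactivates, hold eIF4E away from eIF4G. Many mRNAs of the translation machinery itself begin with a run of pyrimidines (TOP mRNAs) and are controlled as a group through mTORC1 and LARP1.

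The deposited values are FPKM, reads per gene scaled to gene length and library total, so levels of different genes can be set side by side. The library totals behind them were 28209432 to 29335051 reads, and 59 of the 63 genes could be worked back to whole reads. All others had no counting interval (EEF1A2, EIF2B5, EIF3F and EIF6). Of 9 epithelial and urothelial marker genes found in the tables, KRT7, KRT8 and KRT18 reached 1 FPKM in any library, while urothelial markers such as GATA3 did not. Of 3 markers of other cell types (PTPRC, PECAM1 and ALB), none exceeded 0.32 FPKM. The proliferation marker MKI67 had 61.6 FPKM in DMSO and 3.03 FPKM in OICR-9429 in T24 cells, and 68.6 and 1.92 FPKM in UM-UC-3 cells. In bulk RNA, fewer cells of a type and less RNA per cell cannot be told apart, and the part of the lower proliferation in the values below was not tested.

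Translation factor mRNA took up 2.75% of the library total in T24 cells in DMSO and 4.99% in OICR-9429, and 3.0% and 3.70% in UM-UC-3. Most of this difference lay in EEF1A1, which encodes the main eEF1A isoform and had the highest FPKM of the 63 genes in each library. Its share of the total went from 1.23% to 3.08% in T24 cells and from 1.29% to 2.04% in UM-UC-3. Without EEF1A1, the FPKM of the remaining genes summed to 3442 and 4261 in T24 cells and to 3694 and 3613 in UM-UC-3. The median gene was at 26.1 and 26.0 FPKM in T24 cells and at 27.4 and 28.5 FPKM in UM-UC-3 cells, so the middle of the group lay at nearly the same level in all 4 libraries. EIF4E3, a minor cap-binding isoform, was at 0.01 FPKM (2 reads) and 0 FPKM in T24 cells (exact Poisson 95% interval for the latter up to 0.0117 FPKM) and at 0.10 and 0.22 FPKM in UM-UC-3 cells. EIF4EBP3, the least abundant eIF4E-binding protein gene, was at 0.10, 0.49, 0.36 and 0.74 FPKM in the same order. Of its exon bases, 73.4% overlap another gene on the same strand, so its level is uncertain. The other 61 genes reached 1 FPKM in at least 1 library of each line.

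**Figure D1:**
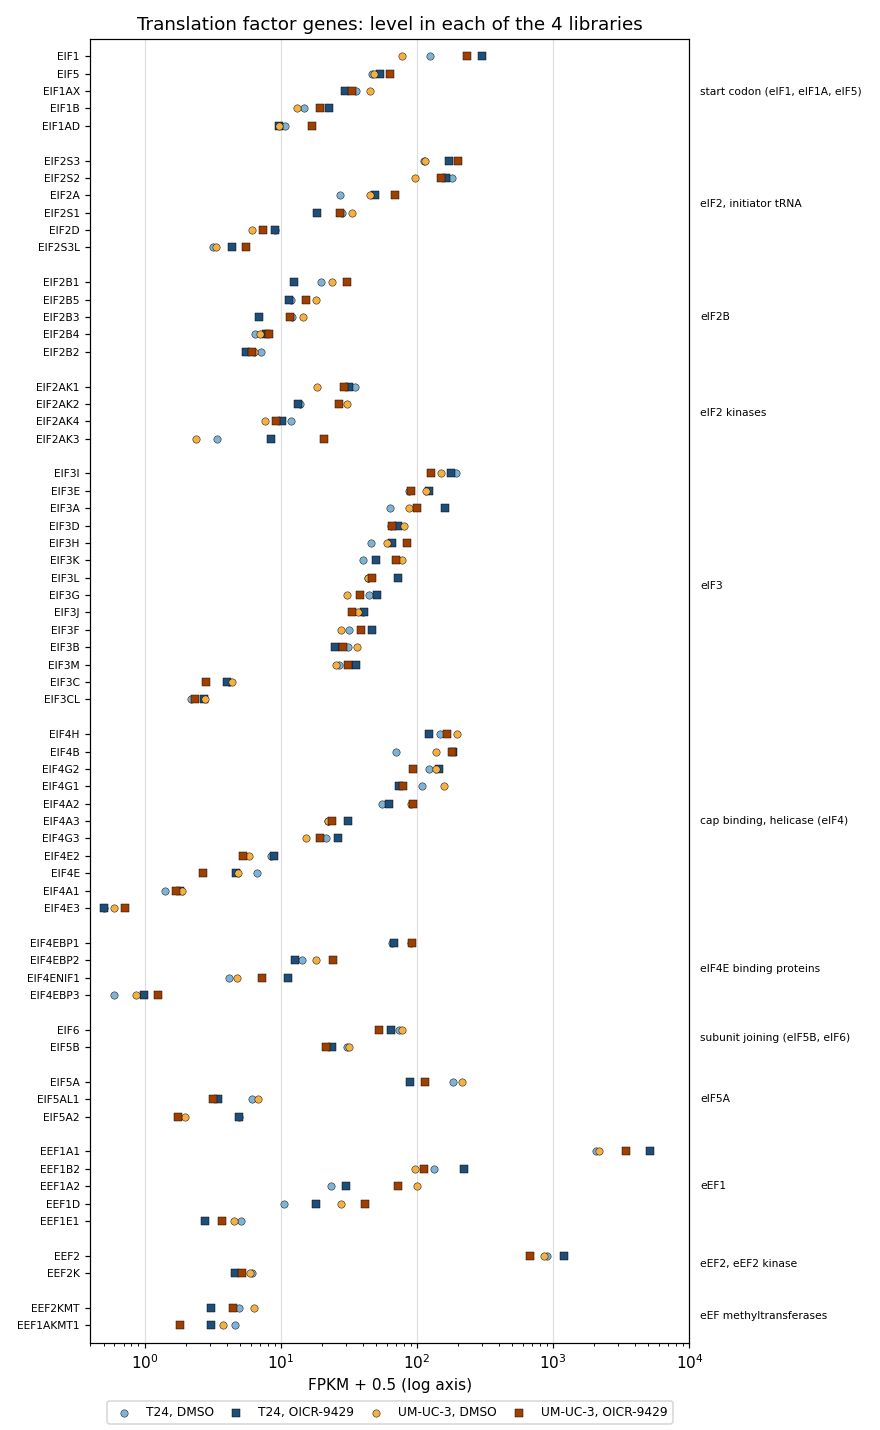
Level of each of the 63 genes (FPKM + 0.5, log axis) in the 4 libraries, ordered by role and then by mean level, with circles for DMSO and squares for OICR-9429. EEF1A1 and EEF2 stand at the right end at 2068 to 5172 and 679 to 1200 FPKM, and for most genes the 4 symbols lie close together.

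A gene was called higher or lower in a line when FPKM + 0.5 differed at least 2-fold between the libraries and at least 1 of them had 1 FPKM or more. Such a call goes by size alone, without a test, because each line has 1 library per condition. In T24, 7 of the 61 genes were called (11.5%), against 20.5% of all 12638 genes at that level. Higher were EEF1A1, EIF1, EIF2AK3, EIF3A, EIF4B and EIF4ENIF1 (9.84% of the 61, against 6.93% of all genes), and EIF5A was lower (1.64%, against 13.5%). In UM-UC-3, 5 of the 61 were called (8.20%), against 26.0% of 13086 genes. EIF1 and EIF2AK3 were higher (3.28%, against 14.0%), and EEF1AKMT1, EIF4G1 and EIF5AL1 were lower (4.92%, against 12.1%). EIF1 and EIF2AK3 were the genes called in both lines. The share of translation factor genes called was thus smaller than that over all genes in either line. The 6 higher calls in T24 lay near the share over all genes, which was 8.95% with TMM scaling (a factor that centres most genes) and 9.16% with the median change of all genes set to 0, with the same 6 genes called. Over the 61 genes the log2 fold changes had medians of 0.09 (T24) and -0.05 (UM-UC-3), against -0.15 and 0.09 over all genes, which leaves 0.24 and -0.14 relative to all genes. In T24, 34 genes lay above 0 and 27 below, and in UM-UC-3 30 above and 31 below. Of the 61 genes, 23 were above 0 in both lines, 20 below 0 in both and 18 on opposite sides. Of all 11178 genes over the minimum in both lines, these counts were 3666, 4059 and 3453.

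For a change shared by the lines, limma was fitted to the 4 libraries with the line as a block, over 12584 genes. The lines are the only replicates, so the spread in this fit comes from how far the lines disagree. With 1 residual degree of freedom, limma draws the variance of each gene strongly towards that of genes of like level. The p-value of a gene is therefore not a measure of its own spread between the lines alone. EIF1 rose (log2 fold change 1.42, SE 0.23, adjusted p = 0.035), and it was the only one of the 61 genes past an adjusted p of 0.05, where 3.92% of all genes did (0.811% rose and 3.11% fell). It did not pass without the FPKM minimum (adjusted p = 0.47), without the line as a block (0.40) or without the variance trend (0.082), and passed under the other alternatives. EIF2AK3 had a larger log2 fold change of 2.23 with a larger SE of 0.49 (adjusted p = 0.070), and EIF5A had -0.96 (SE 0.22, adjusted p = 0.083). Before adjustment, 11 of the 61 genes had a p under 0.05, 8 of them higher and 3 lower, where 22.6% of all genes did.

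**Figure D2:**
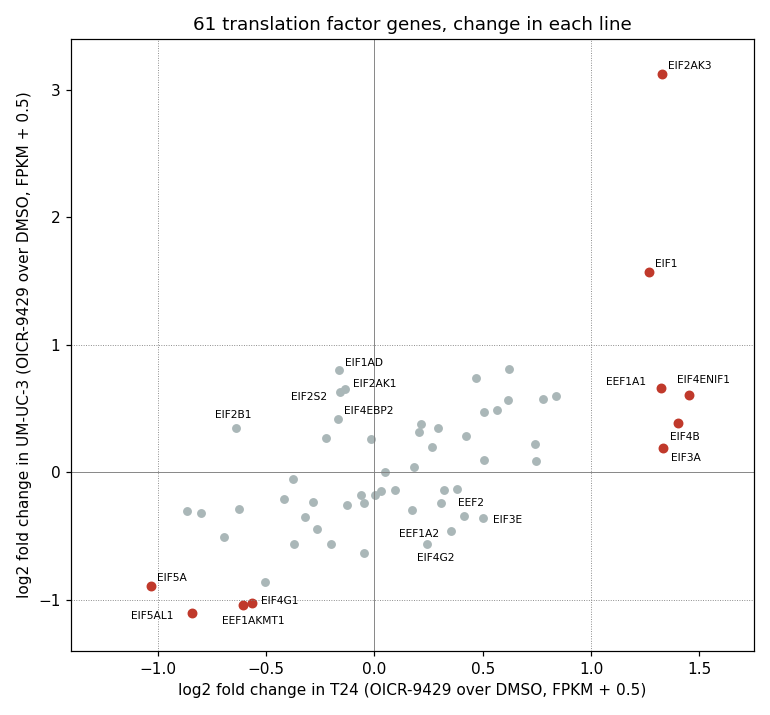
Log2 fold change of FPKM + 0.5 (OICR-9429 over DMSO) in T24 on the horizontal axis and in UM-UC-3 on the vertical axis for 61 genes, with the 10 genes called in at least 1 line in red and dotted lines at the size of a call. EIF2AK3 and EIF1 lie beyond the size of a call on both axes at the upper right, while EIF5A, EIF5AL1, EIF4G1 and EEF1AKMT1 do so on 1 axis at the lower left, and 9 further named genes had opposite signs in the lines.

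The start sites of these genes differ in sequence, and 8 of them are shown because the results below turn on them: 6 with a pyrimidine run at the start by the rule given below and 2, EIF1 and EIF5A, without. The sequences are from RefSeq (GRCh38.p14), 30 bases before and 20 bases from the annotated start, with the run in capitals. EEF1A1 is at chr6:73521013-73521062 (minus strand), EEF2 at chr19:3985444-3985493 (minus), EIF4B at chr12:53006426-53006475 (plus), EIF3F at chr11:7987307-7987356 (plus), EIF2S3 at chrX:24054926-24054975 (plus), EIF2A at chr3:150546757-150546806 (plus), EIF1 at chr17:41688855-41688904 (plus) and EIF5A at chr17:7306969-7307018 (plus).
EEF1A1: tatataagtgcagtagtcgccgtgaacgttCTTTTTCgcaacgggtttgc
EEF2: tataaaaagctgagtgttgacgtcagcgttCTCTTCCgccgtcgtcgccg
EIF4B: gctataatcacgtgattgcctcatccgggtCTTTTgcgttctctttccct
EIF3F: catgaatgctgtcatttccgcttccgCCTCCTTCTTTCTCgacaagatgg
EIF2S3: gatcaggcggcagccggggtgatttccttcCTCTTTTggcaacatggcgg
EIF2A: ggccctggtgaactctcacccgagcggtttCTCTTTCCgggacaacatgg
EIF1: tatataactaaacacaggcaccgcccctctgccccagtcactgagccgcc
EIF5A: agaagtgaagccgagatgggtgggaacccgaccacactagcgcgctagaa

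The run was sought because of the known control of TOP mRNAs, and it needed at least 5 C or T bases in a row, the first of them C. It was counted from the annotated start base itself, whatever lay before it (as in EIF2S3, whose capitals begin at the start within a longer stretch), or where a whole run began within 5 bases of the start. The C and T bases of EIF1 begin farther before the start and end at it, and were not counted. Of the 63 genes, 49 had an entry in the promoter table, and 17 of these (34.7%) held such a run, against 15.5% of all 35116 promoters. Each of the 49 genes was counted once, while all promoters were counted with no filter for expression or repeated gene names. The 2 shares are therefore over unlike sets, also for the other motifs below. The 17 genes had a median log2 fold change of 0.24 (T24) and 0.04 (UM-UC-3), and 13 and 9 of them lay above 0. The 30 genes without a run that reached the FPKM minimum had medians of -0.18 and -0.18, and 11 and 12 of them lay above 0. Relative to all genes the medians were 0.39 and -0.05 with a run and -0.04 and -0.27 without one, so the sign with a run turned in UM-UC-3. At 2-fold, 2 of the 17 genes with a run and 3 of the 30 without were called higher in T24, where 6.93% of all genes were. For UM-UC-3 these counts were 0 and 2, where 14.0% of all genes were called higher. No gene with a run was called lower in either line. Without a run, 1 gene was called lower in T24 (13.5% of all genes). The count without a run for UM-UC-3 was 2 (12.1% of all genes). A wider rule, added after the data were seen, also took stretches inside a run that begins farther away. It added EIF1 and EIF5A2 (19 of 49 genes, 38.8%, against 21.1% of all promoters), with medians of 0.24 and 0.04 with a run and -0.21 and -0.20 without. This is a description of 47 genes with no test, and a match is no sign that a start is used in these cells.

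Among the factors that set the start codon, EIF1, which keeps the scanning ribosome open until the start codon is met, was at 124 FPKM in T24 cells in DMSO (exact Poisson 95% interval 122 to 127, counting error only) and 300.4 FPKM in OICR-9429 (297 to 304). In UM-UC-3 it was at 77.3 FPKM (75.6 to 79.0) and 231 FPKM (228 to 234). Both treated libraries thus lay above both DMSO libraries (log2 fold changes 1.27 and 1.57), and the line with less EIF1 in DMSO also had less in OICR-9429. EIF5, which makes eIF2 hydrolyse its GTP at the start codon, was at 45.9 and 53.3 FPKM in T24 cells and 48.1 and 62.6 FPKM in UM-UC-3 cells. The ratio of EIF1 to EIF5, factors that oppose each other at start codons, went from 2.71 to 5.63 in T24 cells and from 1.61 to 3.69 in UM-UC-3. The paralogue EIF1B was at 14.2 and 22.0 FPKM in T24 cells and at 12.7 and 19.0 FPKM in UM-UC-3 cells, a smaller difference than that of EIF1. EIF1AX, the X-linked gene of eIF1A, lay slightly lower in OICR-9429 in both lines, with log2 fold changes of -0.27 and -0.44. EIF1AD, a protein with an eIF1A domain, had -0.16 (T24) and 0.80 (UM-UC-3).

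Of the subunits of eIF2, the GTPase that carries initiator tRNA, the gamma subunit gene EIF2S3 was at 112 and 172 FPKM in T24 cells and at 114 and 199 FPKM in UM-UC-3 cells. EIF2S2 (beta) was at 181 and 162 FPKM in T24 cells and 96.6 and 149.9 FPKM in UM-UC-3 cells, and EIF2S1 (alpha, the subunit that stress kinases phosphorylate) at 27.8 and 17.9 FPKM and at 32.7 and 26.8 FPKM. The subunits of this complex therefore differed in direction: gamma was higher in OICR-9429 in both lines, alpha lower in both, and beta higher in UM-UC-3 only. EIF2A, a single-chain factor that can bring initiator tRNA without eIF2, was at 26.8 and 48.4 FPKM in T24 cells and at 44.6 and 67.9 FPKM in UM-UC-3 cells, with log2 fold changes of 0.84 and 0.60 (limma adjusted p = 0.15, as for EIF2S3). EIF2S3L, a close copy of EIF2S3 on chromosome 12 whose reads may be shared with it, had 0.47 and 0.74. EIF2D, a factor of non-canonical initiation, had -0.02 and 0.26.

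The 5 genes of eIF2B, which recharges eIF2 with GTP, were at 5.05 to 29.9 FPKM and none was called. The most abundant, EIF2B1 (alpha), was at 19.1 and 12.1 FPKM in T24 cells and at 23.3 and 29.9 FPKM in UM-UC-3 cells, lower in the first line and higher in the other. EIF2B3 (gamma) was at 11.5 and 6.40 FPKM in T24 cells and at 14.1 and 11.2 FPKM in UM-UC-3 cells, and EIF2B4 (delta) had log2 fold changes of 0.27 and 0.20. EIF2B5 and EIF2B2 had -0.05 and -0.24, and -0.37 and -0.05.

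Of the 4 eIF2 kinases, EIF2AK3 (PERK), which senses unfolded protein in the endoplasmic reticulum, was the one called. It was at 2.88 FPKM in T24 cells in DMSO (interval 2.62 to 3.15) and 7.97 FPKM in OICR-9429 (7.54 to 8.42), and at 1.87 (1.66 to 2.1) and 20.2 FPKM (19.5 to 20.9) in UM-UC-3. The least abundant kinase gene in DMSO in both lines, it was 2.77-fold higher in FPKM in the treated T24 library (2.49 to 3.09) and 10.8-fold higher in the treated UM-UC-3 library (9.55 to 12.2), the largest fold among the 61 genes in UM-UC-3. EIF2AK1 (HRI, the haem-regulated kinase) was at 34.5 and 31.4 FPKM in T24 cells and at 17.9 and 28.5 FPKM in UM-UC-3 cells. EIF2AK2 (PKR, which binds double-stranded RNA) and EIF2AK4 (GCN2, which binds uncharged tRNA) had log2 fold changes of -0.06 and -0.22 (T24) and of -0.18 and 0.27 (UM-UC-3). The ratio of EIF2AK3 to EIF2AK4 went from 0.251 to 0.819 in T24 cells and from 0.261 to 2.30 in UM-UC-3, so PERK mRNA was the more abundant of the pair in treated UM-UC-3 cells only. Of the exon bases of EIF2AK3, 15.1% overlap other genes on the annotation, nearly all on the opposite strand, and whether counting used strand is not given in the sources used here.

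Genes of the response that follows eIF2 phosphorylation were listed beside EIF2AK3. Of 11 genes listed for it, 5 were called higher in T24 (against 6.93% of all genes) and 10 in UM-UC-3 (against 14.0%), none lower, with median log2 fold changes of 0.85 and 2.23 beside -0.15 and 0.09 over all genes. ATF4, the transcription factor whose translation rises when eIF2 is phosphorylated, was at 288 and 519 FPKM in T24 cells and at 169 and 445 FPKM in UM-UC-3 cells (log2 fold changes 0.85 and 1.39, limma adjusted p = 0.086). TRIB3, a pseudokinase gene driven by ATF4, went from 43.0 to 124 FPKM in T24 cells and in UM-UC-3 cells from 22.5 to 445 FPKM, and DDIT3, the CHOP transcription factor gene, from 10.4 to 27.5 FPKM and from 6.13 to 112 FPKM. In T24, 2 of the 11 lay below 0. CHAC1, which breaks down glutathione, was at 51.5 and 31.3 FPKM there and at 1.84 and 43.1 FPKM in UM-UC-3 cells, and ASNS, the asparagine synthetase, at 72.1 and 65.7 FPKM and at 32.8 and 123 FPKM. In limma 2 of the 11 rose: PPP1R15A (GADD34), whose protein brings a phosphatase to eIF2 (log2 fold change 1.80, adjusted p = 0.033), and CEBPB, a transcription factor gene (1.82, adjusted p = 0.023) named here after its values were seen. PPP1R15A was at 20.3 and 52.8 FPKM in T24 cells and at 40.2 and 191 FPKM in UM-UC-3 cells. These are mRNA levels, and the phosphorylation of eIF2 was not measured in these files.

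**Figure D3:**
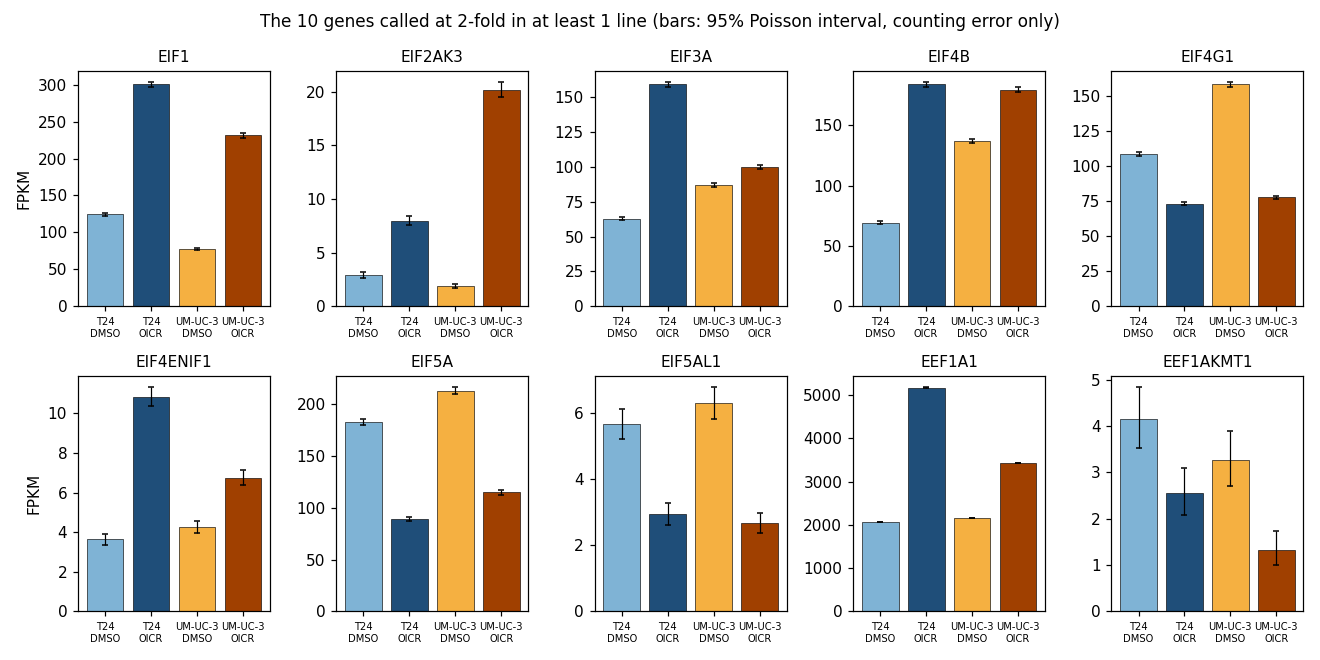
FPKM in the 4 libraries of each of the 10 genes called at 2-fold in at least 1 line, with exact Poisson 95% intervals as error bars that cover counting error only and each panel on its own scale from 0. EIF1, EIF2AK3, EIF3A, EIF4B, EIF4ENIF1 and EEF1A1 have both treated libraries above both DMSO libraries, and EIF4G1, EIF5A, EIF5AL1 and EEF1AKMT1 have both below.

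eIF3, the largest initiation factor, is a scaffold on the small ribosomal subunit, and its 14 genes had a median log2 fold change of 0.31 (T24) and -0.14 (UM-UC-3). Of these, 11 were above 0 in T24 and 6 in UM-UC-3. EIF3A, the largest subunit, was the only one called: it was at 62.9 FPKM (61.8 to 64.0) and 159 FPKM (157 to 161) in T24, and at 87.1 (85.8 to 88.4) and 99.7 FPKM (98.3 to 101) in UM-UC-3. The T24 library in OICR-9429 stood alone above the other 3. Its partner in the core of the complex, EIF3B, had log2 fold changes of -0.32 and -0.35, and EIF3I, the most abundant subunit gene, was at 192 and 176 FPKM in T24 cells and at 149.8 and 125 FPKM in UM-UC-3 cells. EIF3E was at 86.6 and 123 FPKM in T24 cells and at 115 and 89.7 FPKM in UM-UC-3 cells, in opposite directions. EIF3F and EIF3H, the subunits with an MPN domain, were higher in OICR-9429 in both lines, with 0.57 and 0.49 for EIF3F and 0.51 and 0.48 for EIF3H. EIF3L had 0.75 (T24) and 0.09 (UM-UC-3), and 51.8% of its exon bases overlap other genes. The near-identical genes EIF3C and EIF3CL were at 1.70 to 3.89 FPKM, far below the other subunits, and their reads may be shared, so their levels are uncertain.

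Of the factors that bring mRNA to the ribosome, EIF4B, which stimulates the eIF4A helicase, was at 69.4 FPKM (68.1 to 70.6) in T24 cells in DMSO and 184 FPKM (182 to 186) in OICR-9429. In UM-UC-3 it was at 137 (135 to 139) and 179 FPKM (177 to 181), so the treated libraries of the lines lay close together and the DMSO libraries did not. EIF4H, which has the same partner and was the most abundant gene of the group, was at 148 and 121.5 FPKM in T24 cells and at 195 and 166 FPKM in UM-UC-3 cells. The ratio of EIF4B to EIF4H went from 0.469 to 1.51 in T24 cells and from 0.702 to 1.08 in UM-UC-3. EIF4G1, the scaffold that joins the cap-binding protein to the ribosome, was at 109 (107 to 110) and 73.2 FPKM (72.2 to 74.3) in T24 and at 159 (157 to 160) and 77.8 FPKM (76.7 to 78.9) in UM-UC-3. It was lower in OICR-9429 in both lines (limma adjusted p = 0.14), and the treated libraries again lay closer together than the DMSO libraries. EIF4G2 (DAP5), a relative that lacks the eIF4E site, was at 121 and 143 FPKM in T24 cells and at 138 and 93.6 FPKM in UM-UC-3 cells, and its ratio to EIF4G1 went from 1.12 to 1.96 and from 0.873 to 1.20. EIF4E itself, the cap-binding protein, was at 6.20 and 4.21 FPKM in T24 cells and at 4.36 and 2.18 FPKM in UM-UC-3 cells, lower in both treated libraries. Its cap-binding relative EIF4E2, EIF4G3, the helicase gene EIF4A2 and EIF4A3, a helicase of the exon junction complex, had log2 fold changes of 0.04 to 0.50 outside of EIF4E2 in UM-UC-3, at -0.14. EIF4A1, the main helicase, was listed at only 0.90 to 1.37 FPKM, and 48.6% of its exon bases overlap other genes.

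EIF4G1 and EIF4E carry E-boxes (CACGTG, the same on both strands, a site of MYC and related factors) before their starts, and 150 bases before each start are shown with the E-boxes in capitals. EIF4G1 is at chr3:184314456-184314605 (plus strand) and EIF4E at chr4:98929134-98929283 (minus), from the same RefSeq table.
EIF4G1: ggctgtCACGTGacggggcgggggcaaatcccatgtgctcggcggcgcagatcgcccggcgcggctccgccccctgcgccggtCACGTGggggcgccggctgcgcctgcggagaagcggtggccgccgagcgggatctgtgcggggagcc
EIF4E: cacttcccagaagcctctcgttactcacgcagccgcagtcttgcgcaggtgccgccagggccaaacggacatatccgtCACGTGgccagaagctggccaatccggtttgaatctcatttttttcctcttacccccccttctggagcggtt
Within windows of 250 bases before to 50 after the start, 13 of the 49 genes (26.5%) held an E-box, against 7.26% of all promoters. The 12 of them over the FPKM minimum had median log2 fold changes of -0.03 (T24) and -0.18 (UM-UC-3), and the 35 others 0.03 and -0.05. Relative to all genes these were 0.12 and -0.27 with the motif and 0.18 and -0.14 without it. EIF4B is among the 13 and was higher. Of other motifs searched on both strands, TGATGNAA (the core of the amino acid response element, bound by ATF4) was in 0 of 49 windows and in 3.62% of all, TGACGTCA in the window of EEF2 alone (2.04%, against 1.85%), and the endoplasmic reticulum stress element in that of EIF2A alone (against 0.0769%).

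The eIF4E-binding proteins differed from each other. EIF4EBP1, the most abundant, was at 65.3 and 67.5 FPKM in T24 cells and at 90.6 and 90.7 FPKM in UM-UC-3 cells, nearly equal within each line. EIF4EBP2 was at 13.9 and 12.3 FPKM in T24 cells and at 17.6 and 23.7 FPKM in UM-UC-3 cells. EIF4ENIF1 (4E-T), which carries eIF4E into the nucleus and into P-bodies, was at 3.64 (3.36 to 3.93) and 10.8 FPKM (10.3 to 11.3) in T24 and at 4.26 (3.96 to 4.58) and 6.75 FPKM (6.37 to 7.14) in UM-UC-3. Both treated libraries were above both DMSO libraries, and its log2 fold change of 1.45 was the largest of the 61 genes in T24 (limma adjusted p = 0.17). With EIF4E lower, the ratio of EIF4EBP1 to EIF4E went from 10.5 to 16 in T24 cells and from 20.8 to 41.5 in UM-UC-3. The pseudogene copy EIF4EP2 was listed at 309% of the mean FPKM of EIF4E, so the size of this ratio is uncertain.

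Genes around mTORC1 and eIF4E phosphorylation were also listed. Of 16 genes at the FPKM minimum in T24, 4 were called higher, and of 15 in UM-UC-3, 6, with none lower in either line, where 6.93% and 14.0% of all genes were called higher. The medians were 0.47 and 0.50, beside -0.15 and 0.09 over all genes. MKNK2, a kinase that phosphorylates eIF4E while bound to eIF4G, was at 28.1 and 132 FPKM in T24 cells and at 8.62 and 58.7 FPKM in UM-UC-3 cells, and rose in limma (log2 fold change 2.46, adjusted p = 0.0081), the only one of the list to do so. DDIT4 (REDD1), an inhibitor of mTORC1, went from 21.0 to 63.0 FPKM and from 4.55 to 62.2 FPKM (adjusted p = 0.052). MTOR was at 17.5 and 16.9 FPKM in T24 cells and at 12.6 and 29.1 FPKM in UM-UC-3 cells, and PDCD4, an inhibitor of eIF4A, at 7.41 and 7.20 FPKM and at 6.95 and 29.9 FPKM, each nearly equal in T24 and higher in treated UM-UC-3 cells. RPS6KB1, the S6 kinase, had log2 fold changes of -0.42 and 0.50, and LARP1, which binds TOP mRNAs, of 0.60 and 0.43.

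Of the 2 subunit joining and 3 eIF5A genes, EIF5A was called lower in T24 and EIF5AL1 in UM-UC-3. EIF5B, the joining GTPase, was at 30.4 and 23.4 FPKM in T24 cells and at 31.1 and 20.9 FPKM in UM-UC-3 cells, and EIF6, which holds the large subunit apart until it is mature, at 73.4 and 63.8 FPKM and at 77.3 and 52.2 FPKM. EIF5A, the sole protein family with the amino acid hypusine, was at 183 (180 to 186) and 88.9 FPKM (86.9 to 91.0) in T24 cells and at 213 (210 to 216) and 115 FPKM (113 to 117) in UM-UC-3. Both treated libraries were below both DMSO libraries, with log2 fold changes of -1.03 and -0.89. EIF5AL1, a near copy of EIF5A on chromosome 10 whose reads may be shared with it, was at 5.65 and 2.93 FPKM and at 6.28 and 2.66 FPKM. The paralogue EIF5A2 was at 4.40 and 4.41 FPKM in T24 cells and at 1.48 and 1.24 FPKM in UM-UC-3 cells, so it did not follow EIF5A. Of the enzymes that make hypusine, DHPS was at 25.3 and 24.8 FPKM in T24 cells and at 10.9 and 16.1 FPKM in UM-UC-3 cells, and DOHH at 7.84 and 9.13 FPKM and at 14.8 and 13.5 FPKM. Neither was called.

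Among the elongation factors, EEF1A1 was at 2068 and 5172 FPKM in T24 cells and at 2163 and 3429 FPKM in UM-UC-3 cells. The DMSO libraries of the lines were close, and the treated T24 library was the highest of the 4 (log2 fold changes 1.32 and 0.66, limma adjusted p = 0.21). EEF1A2, the isoform typical of muscle and neurons, was at 22.9 and 29.4 FPKM in T24 cells and at 99.2 and 72.1 FPKM in UM-UC-3 cells. The exchange factor genes that recharge eEF1A were higher in OICR-9429 in both lines. EEF1B2 was at 132 and 222 FPKM and at 96.5 and 113 FPKM, and EEF1D at 10.1 and 17.7 FPKM and at 27.1 and 40.7 FPKM. EEF1D shares 34.0% of its exon bases with other genes. EEF1E1, which belongs to the aminoacyl-tRNA synthetase complex, was at 4.57 and 2.28 FPKM and at 4.04 and 3.19 FPKM. EEF2, the translocase, was at 901 and 1200 FPKM in T24 cells and at 859 and 679 FPKM in UM-UC-3 cells, in opposite directions, and its inhibitory kinase EEF2K had log2 fold changes of -0.42 and -0.21. The ratio of EEF1A1 to EEF2 went from 2.29 to 4.31 in T24 cells and from 2.52 to 5.05 in UM-UC-3. EEF1AKMT1, a methyltransferase of eEF1A, was at 4.14 (3.52 to 4.83) and 2.55 FPKM (2.07 to 3.1) in T24 and at 3.26 (2.71 to 3.89) and 1.33 FPKM (0.994 to 1.74) in UM-UC-3, where 52 reads remained. EEF2KMT, which methylates eEF2, was also lower in both, with -0.70 and -0.51.

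**Figure D4:**
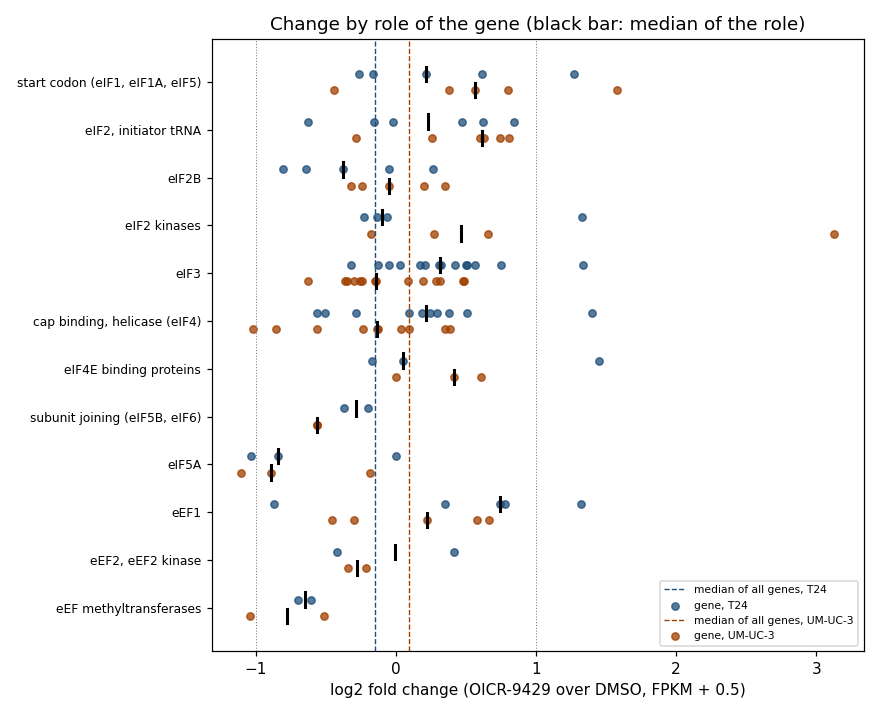
Log2 fold change of FPKM + 0.5 (OICR-9429 over DMSO) of each gene by role, in blue for T24 and brown for UM-UC-3, with black bars for the median of the role and dashed lines for the median of all genes (-0.15 and 0.09). The medians of the eIF5A, methyltransferase, subunit joining and eIF2B genes lie left of the dashed lines in both lines. Those of the start codon, eEF1, eIF2 kinase and eIF4E-binding genes and of eIF2 with initiator tRNA lie right of them.

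By role, the medians relative to all genes were 0.36 (T24) and 0.47 (UM-UC-3) for the start codon factors and 0.89 and 0.13 for eEF1. For the 6 genes of eIF2 and initiator tRNA, which include EIF2A, EIF2D and EIF2S3L, they were 0.37 and 0.52. The eIF2 subunit genes EIF2S1, EIF2S2 and EIF2S3 themselves had log2 fold changes of -0.63, -0.16 and 0.62 in T24. In UM-UC-3 these were -0.28, 0.63 and 0.81. The medians relative to all genes were -0.70 and -0.98 for eIF5A, -0.50 and -0.87 for the methyltransferases and -0.14 and -0.65 for subunit joining. For eIF2B they were -0.23 and -0.14, for the eIF2 kinases 0.05 and 0.37 and for eIF4E binding 0.19 and 0.33. For eEF2 with its kinase they were 0.14 and -0.37. For eIF3 they were 0.46 and -0.24 and for the cap and helicase factors 0.36 and -0.23, so the initiation complexes with the most genes differed in sign between the lines. These groups hold 2 to 14 genes, and no test was made of a role. The unscaled medians of the eIF2 kinases and of eEF2 with its kinase in T24, at -0.10 and -0.00, became 0.03 and 0.12 with TMM scaling, and no other role changed sign. TMM scaling moved the median of all genes in T24 from -0.15 to -0.02, and the share of lower calls among all called genes from 66.1% to 55.8% in T24 cells and from 46.4% to 53.0% in UM-UC-3.

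For 8 of the factor genes long known as TOP mRNAs (EEF1A1, EEF1B2, EEF1D, EEF2, EIF3E, EIF3F, EIF3H and EIF4B), all 8 lay above 0 in T24, with a median log2 fold change of 0.65, and 6 in UM-UC-3, with a median of 0.43. The exceptions in UM-UC-3 were EEF2 and EIF3E. Of the 8, EEF1A1, EEF2, EIF3F and EIF4B held a pyrimidine run by the rule above and are part of the group with a run. EEF1B2 held none by either rule, and EEF1D, EIF3E and EIF3H had no promoter entry. Over all genes, 5268 of 12638 lay above 0 in T24 and 7109 of 13086 in UM-UC-3. EEF1A1 and EIF4B were the 2 called, both higher in T24, where 6.93% of all genes were called higher. The ribosomal protein genes, whose mRNAs are TOP mRNAs too, had other values. Of 78, 3 were called higher and 4 lower in T24, against 6.93% and 13.5% of all genes. In UM-UC-3, 1 was called higher and 8 lower, against 14.0% and 12.1% of all genes. Their medians were -0.08 and -0.23 (0.07 and -0.33 relative to all genes), and none passed in limma. Within them RPS12 was at 596 and 1262 FPKM in T24 cells and at 738 and 1511 FPKM in UM-UC-3 cells, and RPL26 at 5.59 and 1.06 FPKM and at 5.22 and 1.70 FPKM. The 4 lower in T24 (RPL17, RPL26, RPL36A and RPS15A) were listed at only 2.18 to 5.59 FPKM there in DMSO. They were also among the 8 lower in UM-UC-3. Whether their reads were lost to other genes or copies was not tested, so these 4 levels are uncertain. The others lower in UM-UC-3, RPL6, RPL7, RPL7A and RPS24, were at 181 to 733 FPKM in DMSO. PABPC1, the cytoplasmic poly(A)-binding protein gene and another TOP mRNA, was at 393 and 790 FPKM in T24 cells and at 557 and 704 FPKM in UM-UC-3 cells. PABPC1 was called higher in T24 (log2 fold change 1.01), where 6.93% of all genes were, and not in UM-UC-3 (0.34). It was the only one called among 4 poly(A)-binding genes at the FPKM minimum.

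In neighbouring groups 0 to 2 genes were called in a line, where 6.93% (T24) and 14.0% (UM-UC-3) of all genes were higher and 13.5% and 12.1% lower. Of the release and recycling factor genes, 7 at the minimum in T24 and 8 in UM-UC-3, HBS1L, a ribosome rescue factor, was called lower in T24 (10.8 and 5.01 FPKM). ETF1, the release factor, was at 67.2 and 103 FPKM and at 97.9 and 156 FPKM. None of 10 genes of the synthetase complex was called in either line. Of 8 mitochondrial and selenocysteine factors, GFM1 and GFM2, the mitochondrial elongation factors G, were called lower in T24, with log2 fold changes of -1.05 and -1.03 there and of -0.67 and -0.20 in UM-UC-3. Of 8 hypusine and diphthamide genes, DPH7 (10.8 and 31.7 FPKM) and DNAJC24 (3.80 and 8.90 FPKM), which act on the diphthamide of eEF2, were called higher in UM-UC-3. None of these genes passed in limma.

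Pseudogene copies of the factors bear on how far single values can be read. Of 52 copies of 18 of the genes, 13 had at least 1 FPKM in every library, and 12 of these in T24 and all 13 in UM-UC-3 had the same sign of change as their parent gene. The largest, EEF1A1P5, was at 382 and 1026 FPKM in T24 cells and at 423 and 733 FPKM in UM-UC-3 cells, 20% of the mean FPKM of EEF1A1. EIF4EP2 was at 18.0 and 12.1 FPKM and at 14.7 and 7.60 FPKM, 309% of EIF4E, and EIF4A1P10 at 15.8 and 14.4 FPKM and at 12.9 and 5.69 FPKM, 1018% of EIF4A1. For EIF4E and EIF4A1 the copy was thus listed above the gene itself, and whether reads of the genes were assigned to their copies was not tested. EIF4A1P10 was also the copy with the other sign in T24, at -0.13 beside 0.38 for EIF4A1.

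**Figure D5:**
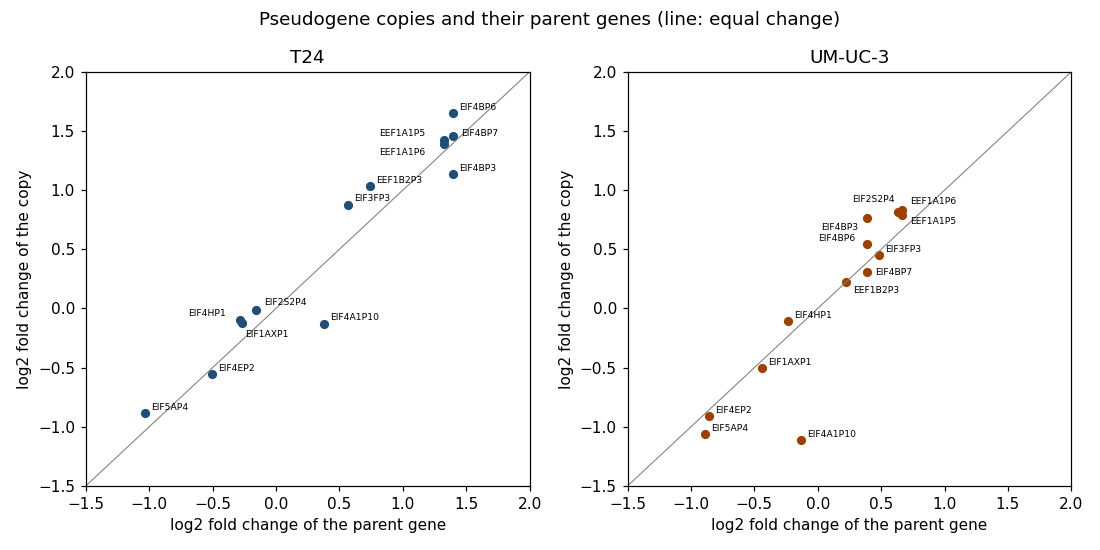
Log2 fold change (OICR-9429 over DMSO, FPKM + 0.5) of the 13 copies with at least 1 FPKM in every library against that of their parent gene, for T24 on the left and UM-UC-3 on the right, with a line of equal change. All points but EIF4A1P10 lie near the line, from EIF5AP4 at the lower left to the copies of EIF4B and EEF1A1 at the upper right.

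Between the lines in DMSO, 57 of the 61 genes were within 2-fold of each other. EEF1A2 was 4.26-fold, EEF1D 2.60-fold and EIF2AK2 2.2-fold higher in UM-UC-3 in FPKM + 0.5, and EIF5A2 was higher in T24 (4.40 against 1.48 FPKM). These differences rest on 1 library each and were not tested.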

How the data were processed

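1 RNA library per line and condition was analysed here, 4 in all. The study's methods give an n of 4 for the treatment without saying what it counts, so whether a library pools cultures is not known. Reads of 150 bases were paired, per the study's methods, and aligned to an Ensembl reference. Tools listed in the submitters' notes were HISAT2 2.1.0, HTSeq 0.6.1 and bcl2fastq 2.19.1, with hg19 as the build. The authors deposited FPKM values, 1 table per library, with 0 other value columns. The counting mode and its use of strand are not given in the sources used here. Multiplied by the merged exon length of GENCODE 29 and a library total, the deposited FPKM gave whole reads for 29029 genes (92.7%, tolerance 1e-06 of the reads). T24 had totals of 28863243 (DMSO) and 29335051 reads (OICR-9429), UM-UC-3 of 28209432 and 29184912. From these reads came exact Poisson intervals at 95%, which cover counting error only.

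Fold changes compare OICR-9429 with DMSO as log2(FPKM + 0.5), which understates the change of low genes. The call of size is 2-fold, with a minimum of 1 FPKM in the higher library. limma (3.58.1, with a variance trend) took genes that reached 1 FPKM in 2 or more libraries, the cell line as a block and Benjamini-Hochberg adjustment over all genes, with 1 residual degree of freedom. The DEGseq comparison named by the study needs counts and was not used. The treated and DMSO libraries are paired by cell line, as the labels give it, and the labels name no further replicates. The fits were tested on simulated data.

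The genes, the role groups and the related lists were chosen with earlier results of these data known. Values in all libraries are given for genes called in a line or past limma. In each role they were also chosen for the 2 most abundant genes and the 2 with the largest mean absolute change. Of these, EIF2AK2, EIF2B5, EIF3F, EEF2K and EEF2KMT are given by their log2 fold changes only. Others are named after their values were seen. Of related lists, the 2 most abundant, the 2 with the largest change and genes acting directly on a factor were named. Alternatives were other pseudocounts (0.1 and 1), FPKM minimums, fold thresholds, TMM scaling, a median change of all genes set to 0, limma without the line or the trend, and voom on the worked-back reads. Promoter sequences are from RefSeq (GRCh38.p14). Python 3.11.15 (numpy 2.4.6, pandas 2.3.3, scipy 1.17.1, matplotlib 3.10.9) and R 4.3.3 were used.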

Additional observations from a re-analysis of the deposited data

Results flagged for a closer look

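In 9 genes the treated library lay above its control in one line and below it in the other, with fold changes at least 1.5-fold apart. Each direction rests on 1 library per condition, and the difference between the lines was not tested. How many of all genes meet the same rule was not counted. Without the 1.5-fold rule, 18 of the 61 genes lay on opposite sides of 0, where 3453 of all 11178 genes did. All 9 also had opposite signs with TMM scaling, but 4 of them (EIF1AD, EIF2AK1, EIF2S2 and EIF4EBP2) were then within 0.05 of 0 in T24, at -0.04, -0.01, -0.03 and -0.04. With the median change of all genes set to 0, EIF2AK1 was at 0.01 in T24, and 8 kept opposite signs.

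In the elongation factors, EEF2, the translocase, had log2 fold changes of 0.41 (T24) and -0.34 (UM-UC-3), and EEF1A2, the tissue-restricted eEF1A isoform, 0.35 and -0.46. The same order was seen in EIF3E, an eIF3 subunit, with 0.50 and -0.36, and in EIF4G2, the scaffold without an eIF4E site, with 0.24 and -0.56. These 4 genes were higher in treated T24 cells and lower in treated UM-UC-3 cells.

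The other 5 had the reverse order. EIF1AD, the protein with an eIF1A domain, had -0.16 (T24) and 0.80 (UM-UC-3). EIF2AK1, the haem-regulated eIF2 kinase, had -0.14 and 0.66, and EIF2S2, the beta subunit of eIF2, -0.16 and 0.63. EIF2B1, the alpha subunit of eIF2B, had -0.64 and 0.35, and EIF4EBP2, an eIF4E-binding protein, -0.17 and 0.42. Of these 5 genes, 3 belong to eIF2, its exchange factor or its kinases. Those role groups hold 6, 5 and 4 of the 63 genes. Of the 3, EIF2AK1 and EIF2S2 were at -0.01 and -0.03 in T24 with TMM scaling.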

How the results depend on the processing

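With 1 library per condition no replicate could be left out. The number of genes called in T24, 7, was 20 at a fold threshold of 1.5 (12 higher, 8 lower) and 0 at 4. At these thresholds 15.5% and 1.04% of all genes were higher, and 27.2% and 3.28% lower. The number was 6 with TMM scaling or with the median change of all genes set to 0, where EIF5A was lost. With either, 20.2% of all genes were called. In UM-UC-3 the 5 calls became 16 at 1.5-fold (10 higher, 6 lower), 1 at 4-fold (EIF2AK3) and 3 with a pseudocount of 1. Of all genes there, 27.6% were higher and 22.3% lower at 1.5-fold. At 4-fold 5.63% of them were called, and with that pseudocount 21.1%. The median log2 fold change of the group in T24 was 0.22 with TMM scaling, and that in UM-UC-3 turned to 0.0016 over all 63 genes. In limma, 1 gene passed as reported, 0 without the FPKM minimum, 0 with no replicate block for the pairing by line and 0 without the variance trend. The 0 counts stood beside 10, 5 and 8 genes at an unadjusted p under 0.05, where 9.36%, 8.44% and 21.3% of all genes were. EIF1 and EIF2AK3 passed, 2 genes, with TMM scaling and with the median change set to 0, and 3 with voom (EIF5A the further one). Over all genes 391 fell and 102 rose in limma, 760 and 401 with TMM scaling, 683 and 362 with the median change set to 0, 654 and 281 with voom, 427 and 124 at a minimum of 5 FPKM and 0 without the minimum or the line. Of 540 single-gene values under the alternatives, 532 kept their direction and side of the threshold, and EIF4E2 alone turned sign, to 0.0059 with the median change set to 0. Within a line, counting error is the only measure of error.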
